A study of Mus musculus with 12 samples.

Results

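Adipokines are proteins that white adipose tissue secretes into the blood or toward neighbouring cells. The transcripts of 10 of them, Adipoq, Lep, Retn, Rbp4, Cfd, Nampt, Apln, Nrg4, Rarres2 and Sfrp5, were taken by gene symbol from a table of 55281 genes. All 10 were present and all 10 passed the filter on low counts. RNA was sequenced from whole gonadal fat pads (gonadal white adipose tissue, GWAT) of male mice that all carried floxed alleles of Hoip, the gene Rnf31, which encodes the catalytic subunit of the complex that builds linear ubiquitin chains. HoipA-KO mice (Hoip fl/fl AdipoQ.Cre+) lack HOIP in mature adipocytes, and the WT controls (Hoip fl/fl AdipoQ.Cre-) carry the same floxed alleles without Cre. From 6 weeks of age the mice were fed either a control diet with 14% fat (CD) or a high-fat diet with 60% fat (HFD) for 16 weeks. The labels give their age as 22 to 24 weeks in all groups. Each of the 4 groups has 3 libraries, and each library was made from GWAT pooled from 3 mice. Cre is driven by the promoter of the adiponectin gene, which is itself one of the genes described here, and every cell of the tissue other than the adipocytes keeps HOIP.

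The libraries held between 30513500 and 60540260 estimated counts, so that 3 counts, taken as the floor, correspond to 0.0496 to 0.0983 CPM (the counts of a gene relative to all counts of its library), well under every value given for an adipokine. WT CD replicate 3 stood apart from the rest, with a Pearson's r across genes of 0.793 and 0.795 to its group's other libraries. The 2 other WT CD libraries, which the tests keep, were less alike (0.904) than any replicate pair of the other groups (0.971 to 0.993). The study's own tables leave replicate 3 out. The tests therefore use the other 11 libraries, with 2 for WT CD, and the result over 12 libraries is given where it changes a call. Leaving out WT CD replicate 1 or 2 leaves that group with the other of them alone. A call gained or lost in such a fit rests on that library. Rnf31 had 20.8 and 20.9 CPM in the WT CD libraries of the tests, 18.2 to 20.03 CPM in WT HFD and 17.7 to 22.5 CPM over the 6 HoipA-KO libraries, so that the genotype could not be read from this gene in whole tissue. All 10 markers fixed for adipocytes were detected in every library. P-values measure the spread between pools, and in bulk tissue fewer adipocytes and less RNA per adipocyte cannot be told apart.

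Adiponectin (Adipoq) and leptin (Lep) are the classical hormones of the adipocyte, the first linked to insulin sensitivity and the second reporting the size of the fat stores to the brain. Resistin (Retn) and retinol binding protein 4 (Rbp4) have been linked to insulin resistance in mice, and adipsin (Cfd) is complement factor D, the protease that starts the amplification loop of the alternative complement pathway. Nicotinamide phosphoribosyltransferase (Nampt), apelin (Apln), neuregulin 4 (Nrg4), chemerin (Rarres2) and the Wnt inhibitor Sfrp5 are made by adipocytes as well as by other cells of the tissue to differing degrees.

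Promoter sequences from RefSeq (assembly GRCm38.p6) matched 9 of the 10 genes. Those of Cfd, Retn and Adipoq, which were low in HoipA-KO on both diets, and of Lep and Sfrp5, which were high in WT HFD only, follow as the 250 bases before the transcription start, 5′ to 3′ on the strand of the gene. Capitals mark matches on either strand to 7 motifs, namely the C/EBP core TTGCNNAA, the TATA box TATAAA, the CCAAT box CCAAT, the GC box GGGCGG, the PPAR direct repeat (AGGNCA 2 times, 1 base apart), the NF-kB site (GGGA and TTTCC, 1 base apart) and the hypoxia core ACGTG.

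Cfd (chr10:79890603-79890852, plus strand): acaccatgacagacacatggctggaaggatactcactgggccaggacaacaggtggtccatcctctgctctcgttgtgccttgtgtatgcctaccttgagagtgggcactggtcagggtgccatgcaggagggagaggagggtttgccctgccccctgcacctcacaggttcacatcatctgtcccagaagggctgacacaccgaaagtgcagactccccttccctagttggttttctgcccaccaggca
Retn (chr8:3655520-3655769, plus strand): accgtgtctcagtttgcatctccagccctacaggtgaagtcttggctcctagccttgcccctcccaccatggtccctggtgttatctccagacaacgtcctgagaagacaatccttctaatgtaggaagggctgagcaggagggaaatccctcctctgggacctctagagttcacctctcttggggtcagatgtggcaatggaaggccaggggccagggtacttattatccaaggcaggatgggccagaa
Adipoq (chr16:23146286-23146535, plus strand): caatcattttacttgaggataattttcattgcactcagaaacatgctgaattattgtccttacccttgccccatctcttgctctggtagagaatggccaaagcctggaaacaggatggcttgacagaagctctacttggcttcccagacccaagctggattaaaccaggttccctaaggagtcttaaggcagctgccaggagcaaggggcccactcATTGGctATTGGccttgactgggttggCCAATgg
Lep (chr6:29059971-29060220, plus strand): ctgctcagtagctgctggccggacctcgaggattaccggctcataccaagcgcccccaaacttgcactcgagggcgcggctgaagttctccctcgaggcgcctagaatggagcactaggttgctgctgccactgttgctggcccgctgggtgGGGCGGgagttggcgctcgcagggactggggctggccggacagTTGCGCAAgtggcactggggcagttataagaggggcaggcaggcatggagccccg
Sfrp5 (chr19:42202253-42202502, minus strand): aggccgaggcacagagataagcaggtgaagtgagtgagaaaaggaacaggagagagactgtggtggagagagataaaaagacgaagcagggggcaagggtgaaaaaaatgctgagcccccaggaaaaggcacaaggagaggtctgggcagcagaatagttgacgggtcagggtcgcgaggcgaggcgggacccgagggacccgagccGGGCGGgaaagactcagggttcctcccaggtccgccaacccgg

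The windows of Cfd and Retn held no match to any of the 7 motifs. That of Adipoq held 3 CCAAT boxes in the last 34 bases, a motif that 33.8% of all 32851 promoter windows of the same length hold at least once. Lep had a palindromic C/EBP core from -55 to -48 (9.56% of all windows) and a GC box, and Sfrp5 had a GC box from -43 to -38 (32.7%). Over the 9 genes, a C/EBP core was found in 2 (Lep and the downstream start of Rbp4) and a GC box in 5. The PPAR repeat and the NF-kB site, in the spellings given above, were found in none, against 0.338% and 0.356% of all windows. Other spellings of these sites were not searched, so their absence was not shown. Of the 5 windows shown, those of Lep and Sfrp5 both held a GC box, and no motif was found in all 5.

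On CD, 6 of the 10 adipokines were lower in HoipA-KO than in WT mice and none was higher (Cfd, Rbp4, Retn, Nrg4, Adipoq and Apln), where 37.7% of the 18427 genes tested were called and 18.8% were lower (quasi-likelihood test of edgeR, p-values adjusted after Benjamini and Hochberg over every gene tested, threshold 0.05). On HFD, 8 of 10 were lower and none was higher, the same 6 with Lep and Sfrp5, where 11.8% of all genes were called and 7.62% were lower. Without a test, 6 adipokines on CD and 9 on HFD had all HoipA-KO libraries below all WT libraries of the same diet, as had 26.8% and 23.7% of all genes. Nampt and Rarres2 passed the threshold on neither diet. The median log2 fold change of the 10 was -2.19 on CD and -2.87 on HFD, beside -0.06 and 0.06 over all genes tested. With all 12 libraries the same 6 were lower on CD (19.1% of all genes), and on HFD Lep and Apln missed the threshold and 6 were lower (2.25% of all genes).

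**Figure D1:**
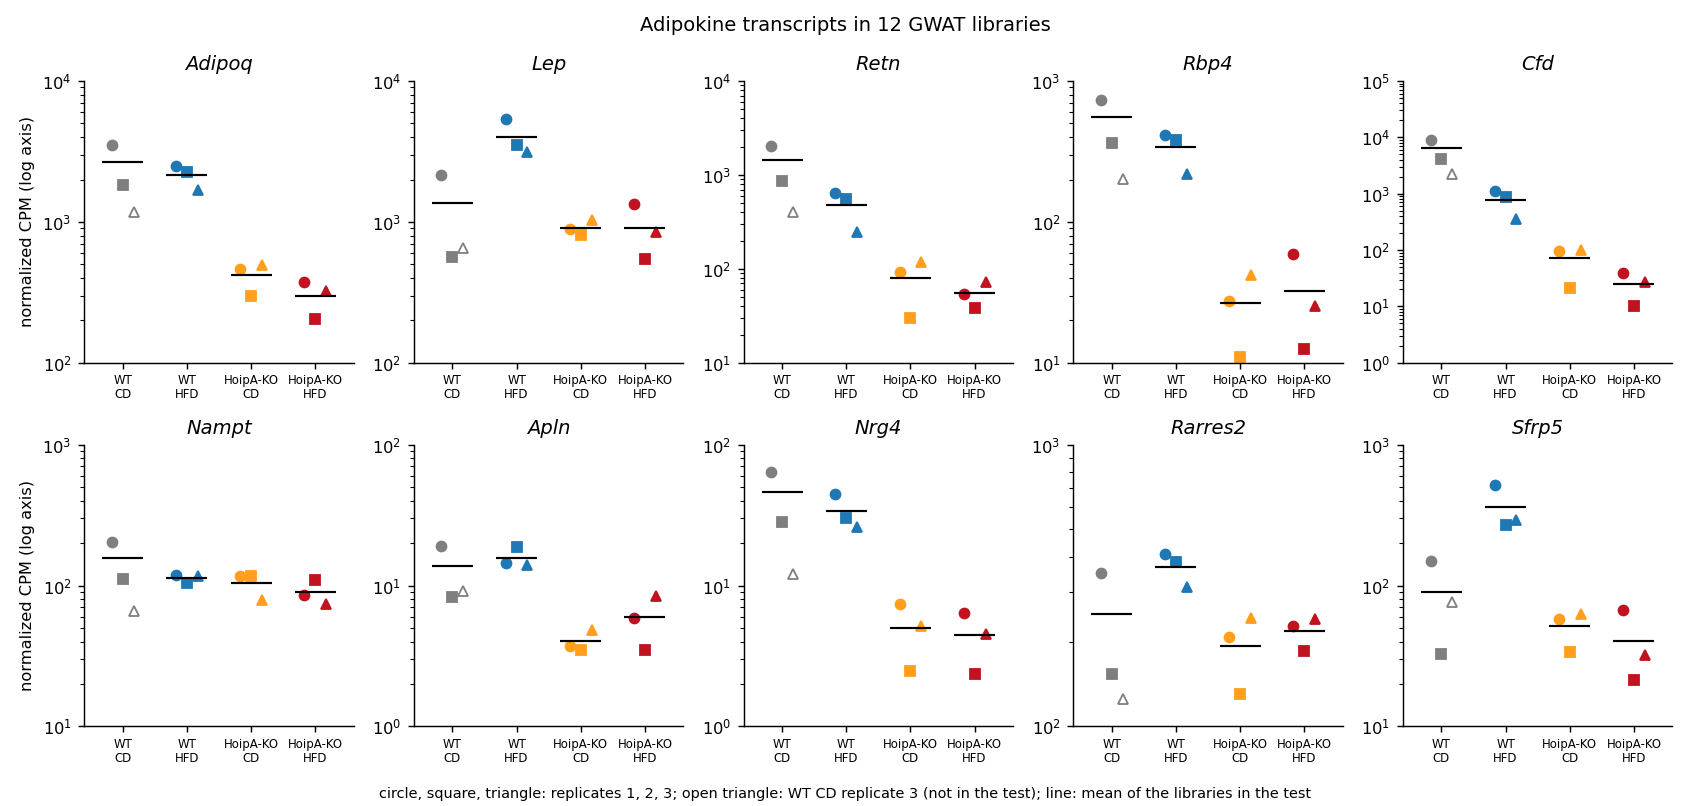
Normalized CPM (log axis) of each adipokine in the 12 libraries, by genotype and diet, with replicates 1 to 3 as circle, square and triangle, WT CD replicate 3 as an open triangle and the mean of the libraries in the test as a line. For Cfd every HoipA-KO library lies at or under 102 CPM and every WT library at or above 353 CPM, while for Nampt all groups overlap.

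Adiponectin (Adipoq, chr16:23146536-23158028, plus strand; all gene positions are of GRCm38) was measured at 3541, 1814 and 1183 CPM in WT CD replicates 1 to 3 and at 2492, 2272 and 1684 CPM in WT HFD. In HoipA-KO the values were 462, 297 and 498 CPM on CD and 372, 203 and 324 CPM on HFD. Every HoipA-KO library was thus below every WT library, and the pairs of groups that differ by diet overlapped. Adipoq fell 6.25-fold in HoipA-KO on CD (log2 fold change -2.64, SE 0.36, edgeR adjusted p = 0.000789) and 7.11-fold on HFD (-2.83, SE 0.34, edgeR adjusted p = 0.00803), and it passed the threshold whichever library was left out.

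Leptin (Lep, chr6:29060220-29073877, plus strand) behaved otherwise. It had 2141, 564 and 649.5 CPM in WT CD and 5360.3, 3543 and 3121 CPM in WT HFD. HoipA-KO libraries had 894, 808 and 1036 CPM on CD and 1336, 542 and 847 CPM on HFD. The 3 WT HFD libraries therefore lay above all other libraries, and those of WT CD and of both HoipA-KO groups overlapped. Lep was lower in HoipA-KO on HFD (log2 fold change -2.13, 95% interval -3.22 to -1.04, edgeR adjusted p = 0.0269; 0.058 with 12 libraries). On CD the difference was not past the threshold (-0.53, interval -1.69 to 0.63, edgeR adjusted p = 0.442), and its estimate turned to 0.71 without WT CD replicate 1.

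The ratio of Adipoq to Lep within a library, which was chosen after the data were seen, does not depend on how libraries are scaled. It was 1.65, 3.22 and 1.82 in WT CD and 0.465, 0.641 and 0.539 in WT HFD. HoipA-KO mice had ratios of 0.517, 0.368 and 0.481 on CD and of 0.279, 0.375 and 0.382 on HFD. All 3 WT CD libraries, replicate 3 included, lay above all 9 others. The mean log2 ratio was lower by 2.36 in HoipA-KO than in WT on CD (5.12-fold, pooled SD between pools 0.51) and 4.24-fold lower in HFD than in CD among WT mice, against 1.59-fold and 1.32-fold for the other pair of contrasts.

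**Figure D2:**
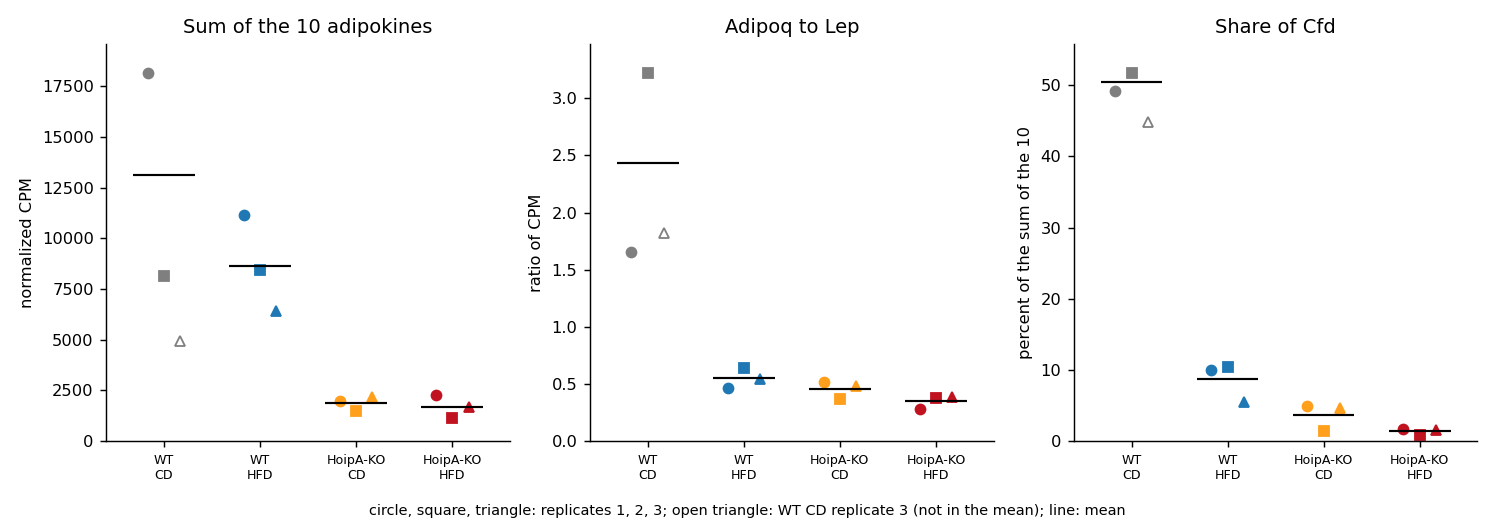
Left, sum of the normalized CPM of the 10 adipokines in each library; middle, ratio of Adipoq to Lep CPM; right, Cfd as percent of the sum, by genotype and diet on linear axes from 0, with replicates 1 to 3 as circle, square and triangle, WT CD replicate 3 as an open triangle and the mean without it as a line. The ratio and the share of Cfd are high in WT CD alone, and the sum is 4939 CPM or more in every WT library and 2252 CPM or less in every HoipA-KO library. The sum and the ratio were chosen after the data were seen.

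Adipsin (Cfd, chr10:79890853-79892655, plus strand) showed the widest range of all 10. WT CD libraries had 8916, 4206 and 2214 CPM and WT HFD libraries had 1116, 882 and 353 CPM. In HoipA-KO there were 95.7, 21.0 and 102 CPM on CD and 38.6, 9.99 and 26.6 CPM on HFD. Libraries of WT CD, WT HFD and HoipA-KO did not overlap with each other, and those of the HoipA-KO diets did. Cfd was 88.5-fold lower in HoipA-KO on CD (log2 fold change -6.47, SE 0.86, edgeR adjusted p = 0.000727; log2 -5.83 without WT CD replicate 1) and 31.1-fold lower on HFD (-4.96, SE 0.78, edgeR adjusted p = 0.0100). As a part of the summed CPM of the 10 adipokines it made up 44.8% to 51.7% in WT CD, 5.53% to 10.5% in WT HFD and, in HoipA-KO mice, 1.45% to 4.87% on CD and 0.886% to 1.72% on HFD.

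Resistin (Retn, chr8:3655770-3660110, plus strand) and Rbp4 (chr19:38116629-38125281, minus strand) fell to a similar degree. Retn had 2020.2, 858 and 402 CPM in WT CD, 637, 549 and 249 CPM in WT HFD. The knockout libraries had 92.3, 30.0 and 118 CPM on CD and 54.4, 38.2 and 72.3 CPM on HFD. Rbp4 had 737, 365 and 203 CPM in WT CD, 416, 384 and 220.3 CPM in WT HFD, against 27.4, 11.005 and 41.8 CPM on CD and 58.8, 12.5 and 25.2 CPM on HFD in HoipA-KO mice. For both genes the highest HoipA-KO value was under the lowest WT value. On CD Retn was 17.7-fold lower (log2 fold change -4.15, SE 0.62, edgeR adjusted p = 0.00114) and Rbp4 20.3-fold lower (-4.34, SE 0.70, edgeR adjusted p = 0.00159). On HFD the falls were 8.61-fold for Retn (edgeR adjusted p = 0.0146) and 10.5-fold for Rbp4 (edgeR adjusted p = 0.0157). Without WT CD replicate 1 the log2 fold change of Retn on CD was -3.41, and without HoipA-KO HFD replicate 1 that of Rbp4 on HFD was -4.14. The HFD call of Retn was lost without any of 3 libraries, WT HFD replicate 1, WT HFD replicate 2 and HoipA-KO HFD replicate 2 (adjusted p from 0.0545 to 0.0654 in edgeR), and that of Rbp4 without any of these or HoipA-KO HFD replicate 3 (0.0557 to 0.0605).

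Neuregulin 4 (Nrg4, chr9:55220222-55326844, minus strand), a ligand of the receptor ErbB4, and apelin (Apln, chrX:48025146-48034853, minus strand), a peptide ligand of the receptor Aplnr, were less abundant. Nrg4 had 63.5, 28.2 and 12.1 CPM in WT CD and 44.6, 30.1 and 26.1 CPM in WT HFD, against 7.43, 2.45 and 5.14 CPM on CD and 6.36, 2.35 and 4.55 CPM on HFD in HoipA-KO mice. Apln had 19.2, 8.29 and 9.16 CPM in WT CD, 14.4, 18.9 and 14.03 CPM in WT HFD, and HoipA-KO libraries had 3.71, 3.50 and 4.87 CPM on CD and 5.92, 3.51 and 8.50 CPM on HFD. No HoipA-KO library reached the WT libraries of its own diet for either gene. Nrg4 was lower by 8.99-fold on CD (edgeR adjusted p = 0.00181; log2 -2.48 without WT CD replicate 1) and by 7.53-fold on HFD (edgeR adjusted p = 0.0123). Apln was 3.33-fold lower on CD (edgeR adjusted p = 0.00873) and 2.61-fold lower on HFD (edgeR adjusted p = 0.0412). The CD call of Apln was lost without WT CD replicate 1 (log2 fold change -1.03, edgeR adjusted p = 0.0765), and its HFD call was lost in 7 of 13 fits that left out or exchanged a library and with all 12 libraries (-1.40, edgeR adjusted p = 0.0795) or scaling by library size alone (-1.27, edgeR adjusted p = 0.0546).

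Sfrp5 (chr19:42197971-42202252, minus strand), a secreted antagonist of Wnt5a, followed leptin. Its libraries had 148, 32.4 and 76.8 CPM in WT CD, 521, 270.5 and 292 CPM in WT HFD, while those of HoipA-KO mice had 58.2, 33.8 and 62.9 CPM on CD and 66.9, 21.4 and 32.04 CPM on HFD. Here too the 3 WT HFD libraries lay above all 9 others. On HFD Sfrp5 was 8.97-fold lower in HoipA-KO (log2 fold change -3.16, SE 0.61, edgeR adjusted p = 0.0164). On CD it was not past the threshold (-0.77, interval -2.17 to 0.62, edgeR adjusted p = 0.348), with an estimate of 0.69 without WT CD replicate 1. The HFD call was lost without WT HFD replicate 1 (-2.80), HoipA-KO HFD replicate 2 (-2.87) or its replicate 3 (-3.04), and that of Lep without any of these 3 (-1.86, -1.88 and -2.09) or WT HFD replicate 2 (-2.22). Across the 11 libraries Pearson's r between Sfrp5 and Lep on the log2 scale was 0.985, a description over libraries that share groups and depth.

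Chemerin (Rarres2, chr6:48569696-48572789, minus strand) and Nampt (chr12:32819545-32853349, plus strand), the enzyme that makes nicotinamide mononucleotide and also circulates, did not pass the threshold between the genotypes on either diet. Rarres2 had 349.9, 153 and 125 CPM in WT CD, 410.3, 383 and 312 CPM in WT HFD. The HoipA-KO values were 208, 131 and 242 CPM on CD and 227, 185 and 241 CPM on HFD. Its libraries did not overlap between genotypes on HFD, as was the case in the same direction for 23.7% of all genes tested, but its difference there missed the threshold (log2 fold change -0.74, interval -1.43 to -0.06, edgeR adjusted p = 0.132; 0.0438 without WT CD replicate 2 and 0.0297 with only the HFD groups in the fit). On CD it was -0.35 (interval -1.11 to 0.41, edgeR adjusted p = 0.441) and turned to 0.35 without WT CD replicate 1. Nampt had 204, 111 and 65.7 CPM in WT CD, 118, 105 and 117 CPM in WT HFD, with 117, 116 and 79.5 CPM on CD and 85.3, 109 and 74.4 CPM on HFD in HoipA-KO mice. Its log2 fold change was -0.56 on CD (interval -1.18 to 0.06, edgeR adjusted p = 0.137) and -0.32 on HFD (interval -0.88 to 0.24, edgeR adjusted p = 0.402). The CD estimate was -0.92 without WT CD replicate 2, which leaves replicate 1 alone in that group.

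**Figure D3:**
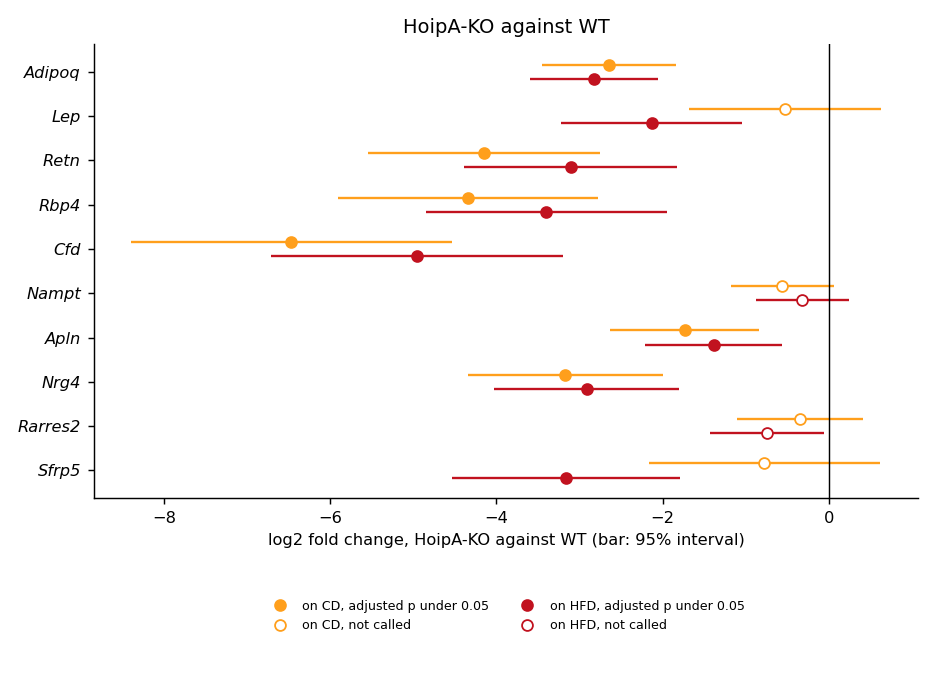
Log2 fold change of each adipokine in HoipA-KO against WT on CD (orange) and on HFD (red), over 11 libraries, with bars for the 95% interval and filled points for an adjusted p under 0.05. All 20 estimates lie below 0, with Cfd the lowest on both diets and Nampt and Rarres2 open on both.

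Between the diets in WT mice 1 of 10 adipokines passed the threshold. Cfd fell 8.33-fold (log2 fold change -3.06, SE 0.75, edgeR adjusted p = 0.0277), where 14.8% of all genes changed, 5.47% lower and 9.35% higher. Cfd and Retn had all WT HFD libraries below both WT CD libraries of the test, as had 18.3% of all genes. Lep and Sfrp5 had higher values in all 3 WT HFD libraries than in any WT CD library, with estimates of 1.58 (interval 0.34 to 2.81, edgeR adjusted p = 0.0818) and 2.01 (0.49 to 3.53, edgeR adjusted p = 0.0735) on the log2 scale, and 24.1% of all genes tested were likewise without overlap and higher. With all 12 libraries, where 5.97% of all genes were lower and 9.05% higher, both passed the threshold (1.82, edgeR adjusted p = 0.0428, and 2.04, edgeR adjusted p = 0.0408). Their estimates were 2.84 and 3.48 without WT CD replicate 1, which leaves replicate 2 alone in that group. Both also passed with DESeq2's Wald test (adjusted p = 0.0129 and 0.00815), which also called Retn (-1.62, adjusted p = 0.0253). Retn itself was estimated at -1.58 (edgeR adjusted p = 0.0948). The call of Cfd was lost without WT CD replicate 1 (-2.42, edgeR adjusted p = 0.0628), without WT HFD replicate 2 or 3 (-3.15 and -2.79) and with only the 2 WT groups in the fit (-3.14, edgeR adjusted p = 0.0861), and held with all 12 libraries (-2.72, edgeR adjusted p = 0.0406). Adipoq had an estimate of -0.31 (interval -1.11 to 0.49), and Rbp4, Nampt, Apln, Nrg4 and Rarres2 lay between -0.69 and 0.56.

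In HoipA-KO mice 0 adipokines and 0% of the 18427 genes passed edgeR's threshold between the diets, while 415 genes (2.25%) had an unadjusted p under 0.05 and DESeq2 called 7 genes, none of them an adipokine. Estimates for the adipokines ranged from -1.55 for Cfd (interval -3.07 to -0.03, unadjusted p = 0.0469 in edgeR's test) to 0.56 for Apln (-0.26 to 1.37). For Lep the estimate was -0.02 (-1.07 to 1.02) and for Sfrp5 -0.38 (-1.64 to 0.88). The difference between the genotypes in the effect of the diet was tested as an interaction, which called 3.91% of all genes and no adipokine at an adjusted p under 0.05. An unadjusted p under 0.05 was reached by 4228 genes and 2 adipokines, Sfrp5 (log2 -2.39, interval -4.34 to -0.44, edgeR adjusted p = 0.146) and Lep (-1.60, interval -3.20 to -0.01, edgeR adjusted p = 0.217). DESeq2 called 1 of them, Sfrp5 (adjusted p = 0.0357). Without WT CD replicate 1, which leaves replicate 2 alone in that group, the estimates were -3.85 for Sfrp5 and -2.85 for Lep.

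**Figure D4:**
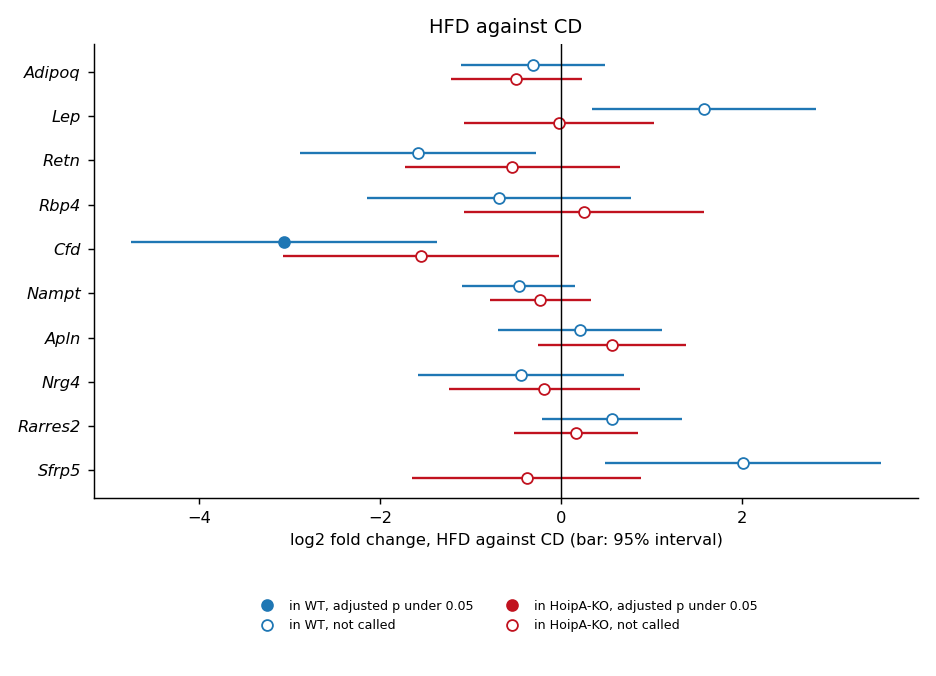
Log2 fold change of each adipokine in HFD against CD in WT (blue) and in HoipA-KO (red), over 11 libraries, with bars for the 95% interval and filled points for an adjusted p under 0.05. The single filled point is Cfd in WT at -3.06, and the WT estimates of Lep and Sfrp5 lie above 1.5.

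The levels of the adipokines relative to each other were compared as CPM per kilobase of annotated exon (GENCODE vM21), which takes the whole exon length of a gene and not that of the isoform in use. Cfd ranked first in all 3 WT CD libraries, with 7116 ± 3612 CPM per kilobase (SD, n = 2 pools), ahead of Adipoq with 1939 ± 884 and Retn with 911 ± 521. In WT HFD Adipoq ranked first in all 3 libraries (1556 ± 303, n = 3), followed by Lep (1195 ± 355) and Cfd (850.0 ± 424), so that the spread of Lep overlapped that of its neighbours. In HoipA-KO CD Adipoq (304 ± 77.6) and Lep (272 ± 34.3) shared the first 2 places, with Lep first in 1 library. In HoipA-KO HFD Lep (271 ± 119) ranked ahead of Adipoq (217 ± 63.1) in all 3 libraries although their spreads overlapped. Nrg4 and Apln were the lowest of the 10 in every library. The sum of the 10 transcripts was 0.548% to 1.58% of all counts in WT libraries and 0.107% to 0.2502% in HoipA-KO libraries.

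Markers of adipocytes moved in the same direction as these transcripts. All 10 of the list (Plin1, Plin4, Cidec, Lipe, Pnpla2, Fabp4, Acvr1c, Pck1, Slc2a4 and Car3) passed the threshold with lower values in HoipA-KO, whichever the diet, with a median log2 fold change of -2.20 on CD and -2.04 on HFD. Among all genes tested, 18.8% were lower on CD and 7.62% on HFD. Over all 12 libraries 8 of the 10 markers passed on HFD, where 2.25% of all genes were lower. Their summed level was 24836 to 62060.0 CPM in WT CD and 23853 to 34098 CPM in WT HFD, and 6422 to 9844 CPM on CD and 5637 to 7774 CPM on HFD in HoipA-KO mice. The falls of the list ran from -1.68 for Pnpla2 to -3.53 for Pck1 on CD, and those of Retn, Rbp4 and Cfd on CD lay beyond this range, while those of Adipoq, Nrg4 and Apln lay within it. On HFD the list ran from -1.52 for Pnpla2 to -3.58 for Car3, with Cfd alone of the 8 called adipokines beyond it and Apln short of it. No adipocyte marker passed the threshold between the diets in either genotype, where 14.8% of all genes did in WT mice and 0% in HoipA-KO mice.

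The adipokines were also set against the mean log2 level of the 10 markers in the same library. Adipoq stayed 0.21 to 0.94 above the markers in all 11 libraries, a mean of 0.78 ± 0.23 (SD, n = 2) in WT CD and 0.35 ± 0.14 (n = 3) in HoipA-KO HFD. Lep was at -0.43 ± 0.45 in WT CD and at 1.78 ± 0.24, 1.55 ± 0.19 and 1.89 ± 0.38 in WT HFD and in HoipA-KO mice on CD and HFD, with no overlap between the first group and the rest. Rarres2 was ordered without overlap, from -2.67 ± 0.07 in WT CD and -1.63 ± 0.06 in WT HFD to -0.72 ± 0.15 and -0.07 ± 0.15 in HoipA-KO mice on CD and HFD. Nampt was at -3.28 ± 0.29 and -3.31 ± 0.30 in the WT groups and at -1.58 ± 0.56 and -1.35 ± 0.59 in the HoipA-KO groups. Cfd had the opposite order, 2.05 ± 0.14 in WT CD and -0.69 ± 0.61 in WT HFD, followed by HoipA-KO mice with -2.36 ± 0.94 on CD and -3.32 ± 0.64 on HFD, which overlapped. These are differences of log2(CPM + 1) values, given as a description without a test.

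**Figure D5:**
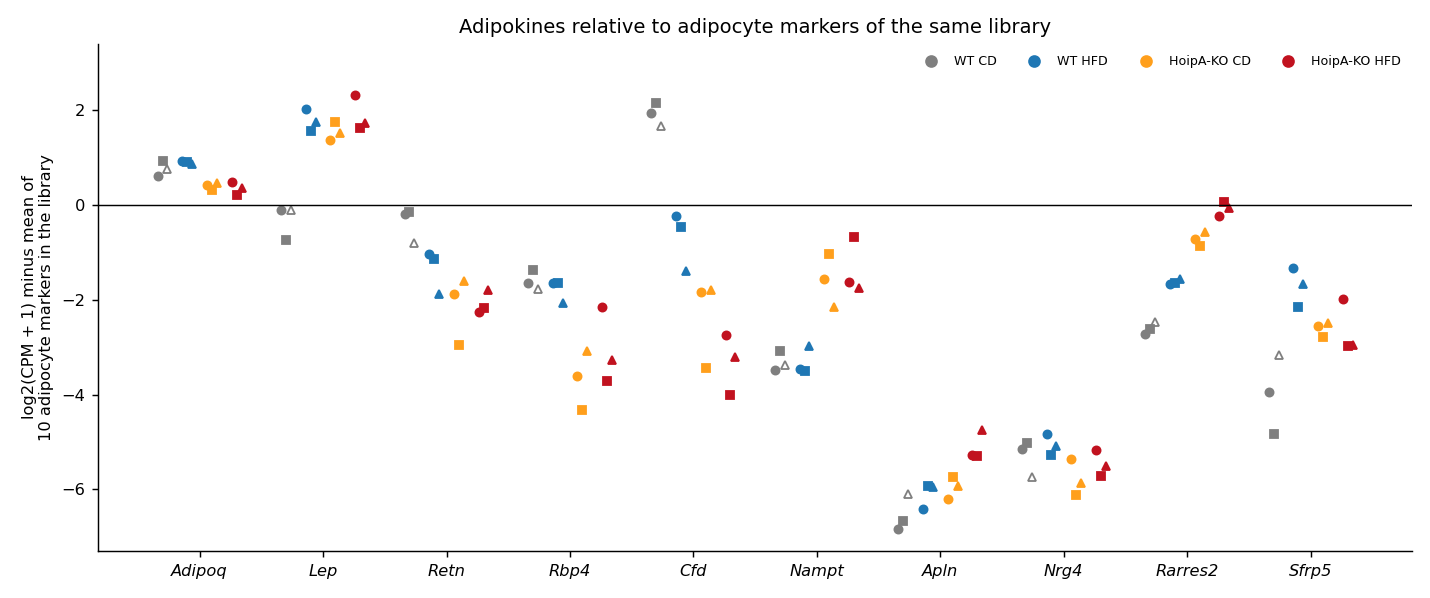
Level of each adipokine as log2(CPM + 1) minus the mean of the same quantity over 10 adipocyte markers of the same library, by genotype and diet, with replicates 1 to 3 as circle, square and triangle and WT CD replicate 3 as an open triangle. Lep is low in WT CD alone, and Rarres2 is lowest and Cfd highest in WT CD. Adipoq lies between 0.21 and 0.94, at 0.62 or more in every WT library and 0.485 or less in every HoipA-KO library.

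Other cell types moved with the groups as well. All 10 macrophage markers were higher in HoipA-KO on CD (median log2 fold change 4.73) and in WT mice after HFD (3.49), and 3 of 10 were higher in HoipA-KO on HFD (1.33; 0 of 10 with all 12 libraries). Their summed level was 431 to 549.6 CPM in WT CD, 2020 to 7629 CPM in WT HFD, and 14761 to 20758 CPM on CD and 9116 to 18543 CPM on HFD in HoipA-KO mice, with none of the markers at 0 in any library. Of 8 progenitor markers 5 were higher in HoipA-KO on CD and 5 in WT HFD against WT CD, of 8 endothelial markers 3 were lower on CD and 2 on HFD (1 and 0 with all 12 libraries), and no mesothelial marker passed the threshold. Of 8 brown fat markers 4 were lower and 1 was higher on CD and 1 was lower on HFD (0 with all 12 libraries). Over all genes 18.8% were lower and 18.9% higher on CD, and 7.62% and 4.2% on HFD. Between the diets in WT mice 9.35% of all genes were higher on HFD. WT CD replicate 2 had a summed level of 15632 CPM over 10 epididymal epithelium markers, against 0 to 1326 CPM in the other libraries. The part of these cells in the adipokine results was not tested.

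The genes whose log2 CPM over the 11 libraries was most like that of an adipokine, among 9819 with a mean of at least 10 CPM, were Plaat3 (r = 0.992), Miga2 and Amy1 for Adipoq, Gpat3 (0.991), Foxred1 and Pccb for Retn, Tlcd1 (0.992), Snhg11 and Fasn for Rbp4, and Acaca (0.987), Gm20683 and Pfkfb1 for Cfd. For Nrg4 they were Amy1 (0.994), Ctdspl and Dock9, and for Apln they were Lpar6 (0.988), Trp53i11 and Slc25a25. Crtac1 (0.987), Optn and Atp10a were most like Lep, and Syp (0.990), Prelp and Crtac1 were most like Sfrp5. The likeness was weaker for Nampt, with Ccni (0.973), Gpd1l and Ttc30b, and for Rarres2, with H2-T22 (0.971), Ece1 and Cd81. Points of the same group share genotype and diet, so r mainly describes the order of the groups.

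Receptors and binding partners of the adipokines did not move in 1 direction. Of 20 tested, 6 were lower and 5 higher in HoipA-KO on CD, and 4 were lower and none higher on HFD (over all genes, 18.8% fell and 18.9% rose on CD, against 7.62% and 4.2% on HFD; with all 12 libraries 3 were lower and 5 higher on CD and 1 was lower on HFD), with medians of -0.35 and -0.20 on the log2 scale. The adiponectin receptor Adipor2 was lower on CD (log2 fold change -0.93, edgeR adjusted p = 0.0109) and on HFD (-1.205, edgeR adjusted p = 0.0127), as was Cdh13, the gene of T-cadherin, which binds adiponectin (-1.24 and -1.14), while Adipor1 was estimated at 0.08 and 0.12. The insulin receptor gene Insr (-1.25 and -0.95) and Wnt5a, a ligand that Sfrp5 binds (-1.10 and -1.45), were lower on both diets too. With all 12 libraries the calls of Adipor2 (edgeR adjusted p = 0.111 on CD and 0.0636 on HFD) and Cdh13 (0.0705 and 0.122) were lost on both diets and that of Insr on HFD (0.0590). Without WT CD replicate 1 the CD calls of Adipor2, Cdh13 and Wnt5a were lost, with estimates down to -0.16, -0.36 and -0.55 where WT CD replicate 3 took its place, and on HFD between 3 and 6 of 13 fits that left out or exchanged a library lost the call of each of the 4 genes. Higher on CD were Cap1, a proposed receptor of resistin (1.98), C3, the complement protein on which the factor D pathway acts (2.04), and C3ar1, the receptor of its fragment C3a (5.10). Erbb3 had 104 CPM in WT CD replicate 2 and 1.53 to 17.4 CPM in the other 11 libraries, and its lower call on CD (-3.52) turned to 1.60 without that library. Stra6l, a receptor of retinol binding protein, rose in WT HFD from 0.22 and 0.17 CPM on CD to 2.86, 5.30 and 9.65 CPM (log2 fold change 4.92, edgeR adjusted p = 0.00617), where 14.8% of all genes changed.

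Of 20 relatives of the adipokines tested, 4 were lower and 4 higher in HoipA-KO on CD, near the shares of 18.8% and 18.9% over all genes, and 2 were lower and 1 higher on HFD, where 7.62% and 4.2% of all genes were. The counts over all 12 libraries were 2 and 3 on CD and 1 and 0 on HFD. Retnla, the resistin-like molecule alpha, fell with Retn on both diets, from 188 and 77.7 CPM in WT CD and 106 to 163 CPM in WT HFD to 11.3 to 26.5 CPM on CD and 6.53 to 30.1 CPM on HFD in HoipA-KO mice (log2 fold change -2.69, edgeR adjusted p = 0.00692, and -2.87, edgeR adjusted p = 0.0171). Rbp7, an intracellular retinol binding protein, was lower on CD (-1.46; with all 12 libraries -1.16, edgeR adjusted p = 0.0791). Among the secreted relatives of adiponectin, C1qtnf6 rose on CD (2.38, edgeR adjusted p = 0.000452), C1qtnf9 fell (-1.55, edgeR adjusted p = 0.0278; with all 12 libraries -1.27, 0.0703, and -0.56 with WT CD replicate 3 in place of replicate 1), and C1qtnf1 and C1qtnf6 rose in WT HFD (edgeR adjusted p = 0.00803 and 0.00482). C1qtnf4 was called lower on CD (-3.14) with 0.68 and 9.42 CPM in the WT CD libraries of the test and 103 CPM in WT CD replicate 3. Sfrp1 and Frzb, antagonists of Wnt signalling like Sfrp5, were called higher on CD, Sfrp1 by 1.37 and Frzb from 0.024 and 0.54 CPM to 4.63 to 7.89 CPM, although WT CD replicate 3 had 7.17 CPM of Frzb, and Sfrp4 was lower on HFD (-2.42; edgeR adjusted p = 0.0751 with all 12 libraries).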

How the data were processed

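GWAT RNA was sequenced as poly(A)-selected, stranded libraries. The authors trimmed reads with Trim Galore 0.6.7, aligned them with STAR 2.7.10a and deposited estimated counts per gene from Salmon 1.5.2 (unit: estimated counts, not normalized) for 55281 genes (tools and versions from the submitters' processing notes). The labels give GRCm38 as the build while the methods name a human assembly; 94.0% of the gene identifiers (51948) are in GENCODE vM21. 3 further deposited tables, holding the authors' DESeq2 1.38.1 fold changes, p-values and CPM, were not used.

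Counts were rounded, filtered with filterByExpr, scaled by TMM and fitted in 1 model of the 4 groups over 11 libraries with edgeR 4.0.16 (quasi-likelihood test, prior count 0.125, Benjamini-Hochberg over 18427 genes, threshold 0.05) in R 4.3.3. The script was tested on simulated data. CPM shown are scaled by TMM over all 12 libraries. Standard errors come from the test statistic and intervals are at 95%; floors cover counting error only. Pools varied with a biological coefficient of variation of 0.394 (0.514 with 12 libraries). Alternatives were other scalings and filters, protein-coding genes only, 12 libraries, a replicate block, 2 groups per fit, DESeq2 1.42.0 and 13 fits with a library left out or, for WT CD, exchanged for replicate 3.

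Genes outside the 10 adipokines were named by a fixed rule: of each list, at most 8 called genes with the highest mean CPM, and per adipokine the 3 genes with the highest r. Adipor1, the lowest and highest adipocyte markers and genes without a call were named after their values were seen. The adipokines and lists were chosen with earlier results of these data known. Replicate numbers are no pairing: deviations of same-numbered libraries correlated between -0.38 and 0.51. The values of 1 gene of the list of relatives are not reported here.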

Additional observations from a re-analysis of the deposited data

Results flagged for a closer look

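8 genes of the receptor, relative and secreted factor lists responded to HFD differently in the genotypes, by a test of the interaction in edgeR, which 3.91% of all genes passed. So did 7 of 10 macrophage markers, with a median of -3.60 over the 10, and their part in these values was not tested. The interaction on the log2 scale was -5.33 for Stra6l (adjusted p = 0.0256), -3.93 for C3ar1 (0.0256), -3.15 for Ccl2 (0.0256), -2.73 for Tnf (0.0301), -1.81 for Fstl1 (0.0391), -1.77 for C1qtnf6 (0.0256), -1.71 for Ccrl2 (0.0327) and -1.68 for C3 (0.0340). All 8 were higher in WT HFD than in WT CD, as were 9.35% of all genes. None passed the threshold between the diets in HoipA-KO mice, where 0% of all genes did. C3ar1, for instance, had 12.3 and 11.9 CPM in WT CD, 73.9 to 305 CPM in WT HFD and 319 to 507 CPM over the 6 HoipA-KO libraries. All 8 were past the threshold with 12 libraries as well, with adjusted p from 0.0131 to 0.0485 in edgeR. Of 13 fits that each left out or exchanged a library, between 3 (Fstl1 and C3) and 6 (Stra6l, C3ar1, Ccl2 and C1qtnf6) kept the call, all with the same sign. With the replicate number as a block Fstl1 (adjusted p = 0.0927), C3 (0.0665), Ccrl2 (0.0654) and Tnf (0.0623) lost the call in edgeR, and C3 did without the filter on low counts (0.0518).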

How the results depend on the processing

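Of 440 values of single adipokines under alternatives that left out no single library, 422 kept their direction and side of the threshold, and of 650 that left out or exchanged a library 576 did. With all 12 libraries 503 genes were called between genotypes on HFD (2179 over 11), 3 adipokines were called between diets in WT, and the interaction turned to -0.031 for Nampt and -0.12 for Nrg4. DESeq2 called 4455 genes between genotypes on HFD, 4551 genes and 4 adipokines between diets in WT, 7 genes in HoipA-KO, and 2374 genes and 1 adipokine in the interaction. With only the 2 groups compared in a fit, 4208 genes were called on CD (6947 over all groups), and 0 genes and 0 adipokines between diets in WT; this fit was not run for the interaction. With the replicate number as a block, 1502 genes (2731 without) and 3 adipokines were called between diets in WT and 377 genes (721 without) and 1 adipokine in the interaction, and no other count of calls moved by over 1.5 times; the numbers do not pair the libraries. Scaling by library size turned Lep between diets in HoipA-KO to 0.11 and a minimum of 10 counts turned it to 0.0055; it also moved the median of all genes between genotypes on HFD from 0.06 to 0.15, the lower share of its calls from 64.5% to 47.0%, and that of the calls between diets in WT from 36.9% to 24.3%.

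Leaving out each library gave 3 to 9 adipokines and 279 to 3797 genes between genotypes on HFD, 0 to 3 adipokines and 1045 to 5985 genes between diets in WT, and 0 to 2 adipokines and 1 to 3668 genes in the interaction. Between genotypes on CD the log2 fold change ran from -1.19 to 0.71 for Lep, -0.82 to 0.35 for Rarres2, -1.48 to 0.69 for Sfrp5 and -4.51 to 1.60 for Erbb3. Between diets in WT it ran from -0.71 to 0.25 for Adipoq, -0.84 to 0.037 for Nampt, -0.91 to 0.26 for Nrg4, -0.27 to 0.94 for Apln and -5.40 to 0.68 for Erbb3. Between diets in HoipA-KO it ran from -0.51 to 0.20 for Nrg4, -0.48 to 0.73 for Rbp4, -0.037 to 0.36 for Rarres2 and -0.38 to 0.23 for Lep. In the interaction it ran from -0.26 to 0.60 for Nampt, -0.37 to 0.83 for Apln, -0.44 to 0.72 for Nrg4, -0.74 to 0.21 for Adipoq and -1.11 to 0.078 for Rarres2. For the summed adipokines, an alternative chosen after seeing the data as was the ratio of Adipoq to Lep, it ran from -1.10 to 0.051 in WT and -0.43 to 0.068 in HoipA-KO.

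With WT CD replicate 3 in place of replicate 1, 1298 genes were called between genotypes on HFD, 7046 genes and 3 adipokines between diets in WT, and 3550 genes and 3 adipokines in the interaction. Lep (0.57), Nampt (0.22) and Rarres2 (0.46) then turned between genotypes on CD, Adipoq (0.502), Rbp4 (0.24), Nampt (0.34) and Nrg4 (0.72) between diets in WT, and Retn (-0.13), Nampt (-0.56), Apln (-0.26) and Nrg4 (-0.901) in the interaction. With replicate 3 in place of replicate 2, 672 genes were called on HFD and 326 in the interaction, and Erbb3 turned to 0.49 on CD. All 10 adipokines lay over the floor of 3 counts in every library, and each group of the tests held 2 or 3 pools. The causes of these changes were not tested.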

Other observations

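Genes that fold and release adiponectin were followed as a list of 8, where 1 was lower and 2 were higher in HoipA-KO on CD and 1 was lower on HFD, beside shares over all genes of 18.8% falling and 18.9% rising on CD, with 7.62% falling and 4.2% rising on HFD. Gstk1, which encodes a chaperone that promotes the assembly of adiponectin multimers, fell with its client on both diets, from 53.3 and 42.6 CPM in WT CD to 8.12 to 10.7 CPM in HoipA-KO CD (log2 fold change -2.26, SE 0.26, edgeR adjusted p = 0.000493) and from 27.8 to 38.7 CPM in WT HFD to 7.55 to 15.0 CPM in HoipA-KO HFD (-1.61, SE 0.24, edgeR adjusted p = 0.00872). Plod1, a lysyl hydroxylase, rose on CD (1.39). P4hb, a protein disulfide isomerase, was called higher on CD (0.64), a call lost without the filter on low counts (edgeR adjusted p = 0.0941), with protein-coding genes only (0.0571), with only the CD groups in the fit (0.111) and in 6 of 13 fits that left out or exchanged a library. Ero1a and Erp44, which retain or release adiponectin in the endoplasmic reticulum, were estimated at 0.35 and -0.08 on CD and did not pass the threshold.

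Of 18 other secreted factors of fat that were tested, 1 was lower and 6 were higher in HoipA-KO on CD, and 1 was lower and 2 were higher on HFD, beside the same shares of all genes. None of the 18 passed on HFD when all 12 libraries were used. Vegfa, the angiogenic growth factor, fell on both diets (log2 fold change -2.02, edgeR adjusted p = 0.00523, and -1.74, edgeR adjusted p = 0.0252; with all 12 libraries 0.0543 on HFD). Metrnl and Fndc5, genes of secreted factors linked to thermogenesis, were called higher on both, Metrnl from 17.6 CPM in WT CD to 151 CPM in HoipA-KO CD and from 65.0 to 147 CPM on HFD (group means), and Fndc5 by 2.71 and 3.14 on the log2 scale. The HFD call of Metrnl was lost with all 12 libraries (edgeR adjusted p = 0.133), with only the HFD groups in the fit (0.0571) and in 9 of 13 fits that left out or exchanged a library, and Fndc5 was called on neither diet with all 12 libraries (edgeR adjusted p = 0.200 on CD and 0.0678 on HFD). Ccl2, a chemokine for monocytes, and Tnf rose on CD (3.46 and 3.75), as did Fstl1 (1.83). Il6 was called higher on CD as well, with 0.049 and 0.086 CPM in WT CD, about the floor, and 0.18 to 0.62 CPM in HoipA-KO CD, and 7 of 13 fits that left out or exchanged a library lost this call. WT CD replicate 3, which is not in the test, had 15.97 CPM of Fndc5. The summed macrophage markers were 14761 to 20758 CPM in HoipA-KO CD and 431 to 549.6 CPM in WT CD (346 CPM in replicate 3). Their part in these values was not tested.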
